A study of Mus musculus with 8 samples.

Results

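The genes described are 35 peroxisomal genes of the mouse liver: 19 enzymes of fatty acid oxidation and related reactions, 3 transporters of the ABC subfamily D and 13 peroxins, the proteins that build the organelle. They were listed by symbol for their known function; the rule uses no measured value, but the list was drawn up with earlier results of these data known. Each symbol matched 1 of the 55487 genes in the count table. All 35 passed the filter on low counts and are among the 13312 genes tested. The study compared 2 groups of livers from male C57Bl/6J mice of about 10 weeks, taken 4 hours after an oral gavage. The control group of 4 libraries received water, and the sorbate group of 4 libraries received potassium sorbate (17 mg), a food preservative whose anion is a short unsaturated fatty acid. No genetic change is named for either group. Whether every library came from its own animal is not said in the labels, so a p-value here sets the difference against the spread of these 8 libraries, which may be technical.

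Peroxisomes are small organelles that shorten fatty acids which mitochondria handle poorly, such as very long and branched chains, and that make hydrogen peroxide in the first step. The liver is rich in them, and in rodents the nuclear receptor PPAR-alpha, a sensor of fatty acids, is known to drive many genes of their oxidation pathway. Peroxisomal enzymes are made in the cytosol and carried across the membrane by peroxins, so enzymes and peroxins together set what the organelle can do. Sorbate itself carries conjugated unsaturated bonds, the kind of structure that dienoyl-CoA reductases act on.

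With sorbate 13 of the 35 genes were higher and 1 was lower, where 6.14% of all tested genes were called higher and 6.3% lower (edgeR's quasi-likelihood test, Benjamini-Hochberg adjusted p under 0.05 over all genes). The enzymes that rose were Ehhadh, Acaa1a, Acaa1b, Decr2, Eci2, Ech1, Slc27a2, Phyh and Nudt19. Among the other classes, the transporter Abcd3 and the peroxins Pex26, Pex19 and Pex11a rose, and the enzyme gene Crot fell. The median log2 fold change was 0.35 over the 35 genes and −0.02 over all genes tested. By class, 9 of 19 enzymes rose and 1 fell (median 0.42), and 3 of 13 peroxins rose and 0 fell (median 0.22; at an unadjusted p under 0.05, 4 were higher and 1 was lower). At that unadjusted threshold this test had 14.2% of all tested genes higher and 15.3% lower, the background for every such count from it. Such counts from another test or scaling have backgrounds of their own, which are not given here. The difference between enzymes and peroxins was not tested. In 14 genes every sorbate library lay above every control, and in 1 gene every sorbate library lay below, against 9.42% and 8.32% of all genes tested. The fitted change was above 2-fold in Acaa1b (2.79), Ehhadh (2.35), Pex26 (2.14) and Slc27a2 (2.11). In a test against a 1.5-fold change (glmTreat of edgeR), which called 0.601% of all genes higher and 0.916% lower, 0 of the 35 were called (6 higher and 0 lower at an unadjusted p under 0.05).

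**Figure D1:**
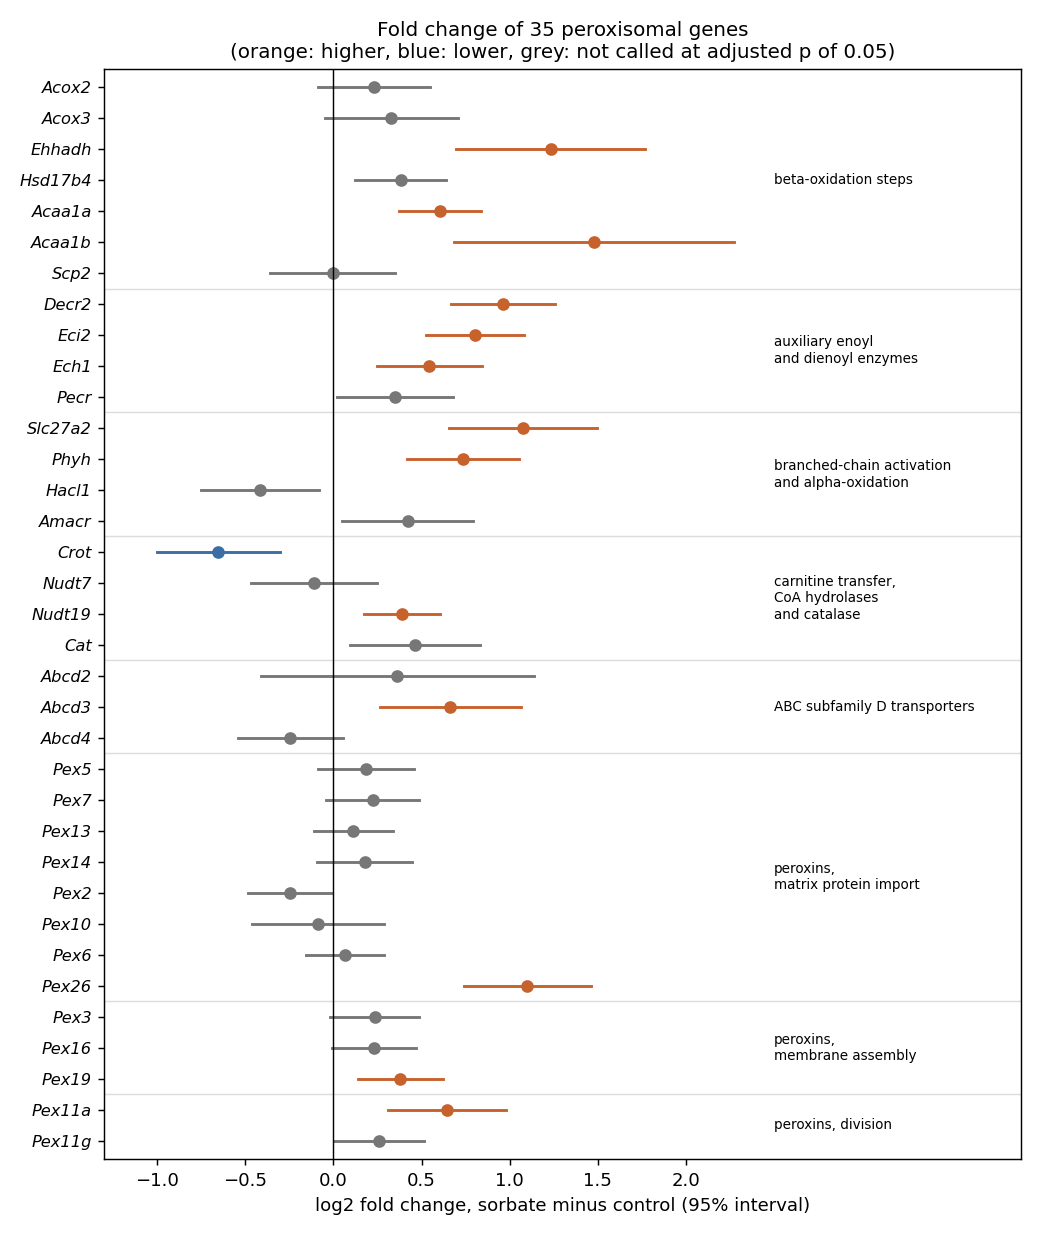
Log2 fold change of each of the 35 genes (x axis, sorbate minus control) with its 95% interval from edgeR's quasi-likelihood fit, in blocks by role; orange genes were called higher, blue lower and grey ones were not called. Acaa1b (1.48), Ehhadh (1.23) and Pex26 (1.10) lie farthest to the right, and Crot (−0.65) is the called gene to the left of 0.

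Total counts per library ran from 15773932 to 25844731, and mitochondrially encoded transcripts took 3.79% to 6.87% of them. The first principal component of all genes held 53.6% of the variance, and on it control 2 scored 15.4, near the sorbate libraries (21.9 to 37.8) and far from controls 1, 3 and 4 (−49.1 to −42.1). Hepatocyte markers were abundant, with 11 of 12 symbols found in the table and a summed level of 77823 to 94144 CPM (library-scaled read counts, with TMM factors) in the controls and 91003 to 115231 CPM with sorbate. Of these 11 markers 1 was called higher and 0 lower. Markers of Kupffer cells and macrophages summed to 276.7 to 669 CPM in the controls, lowest in control 2, and to 199 to 385 CPM with sorbate, and 6 of 11 were called lower. The 10 neutrophil markers, of which 2 were tested and called lower, summed to 2.18 to 27.7 CPM in the controls, again lowest in control 2, and to 1.10 to 2.93 CPM with sorbate, where 3 of them had no count. Monocyte markers summed to 9.05 to 25.5 CPM in the controls and 5.17 to 14.3 CPM with sorbate, with 1 of 4 tested called lower. The summed level of the bile duct markers did not overlap, at 52.0 to 248 CPM and 27.6 to 42.4 CPM. Of the 4 tested, 2 were called lower and 0 higher, with log2 fold changes from −2.16 to 1.03. At an unadjusted p under 0.05, 2 of them were lower and 1 was higher. Red cell markers summed to 331 to 1373 CPM and 251 to 373 CPM, and 4 of 5 were called lower. In that list 1 marker was higher at an unadjusted p under 0.05 (log2 fold change 0.37) and was not called. Sinusoidal endothelial markers summed to 127 to 279 CPM in the controls and 145 to 176 CPM with sorbate, and 1 of 8 was called lower. Stellate cell markers summed to 165 to 262 CPM and 185 to 297 CPM, and 0 of 9 were called. Those of T, NK and B cells summed to 2.90 to 5.36 CPM and 2.80 to 5.08 CPM, and the 1 tested was not called. In each of these lists except those of hepatocytes and of T, NK and B cells control 2 was the lowest control. It was the highest control in the T, NK and B cell list. The part of these cells in the results was not tested, and in whole liver fewer cells of a type and less RNA per cell cannot be told apart.

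The core steps of peroxisomal beta-oxidation are dehydrogenation by an acyl-CoA oxidase, hydration and a further oxidation by a multifunctional enzyme, and cleavage by a thiolase. Of the 7 genes of these steps 3 were called higher, Ehhadh, Acaa1a and Acaa1b, and 0 lower (at an unadjusted p under 0.05, 4 and 0), with a median log2 fold change of 0.38. Ehhadh (ENSMUSG00000022853, chr16:21761287-21787807, minus strand), which encodes the L-bifunctional enzyme, stood at 105, 139.7, 92.7 and 55.5 CPM in controls 1 to 4 and at 189, 247, 209 and 280.0 CPM in sorbate libraries 1 to 4. The groups did not overlap, control 2 was the highest control and control 4 the lowest. Its fitted level was 2.35-fold higher with sorbate (log2 fold change 1.23, SE 0.24, adjusted p = 0.0109).

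Hsd17b4, which encodes the D-bifunctional enzyme for branched chains and bile acid precursors, did not pass the test although its groups did not overlap, with 247 to 290.0 CPM in the controls, against 309 to 384 CPM with sorbate (log2 fold change 0.38, SE 0.12, adjusted p = 0.0569). The oxidase genes Acox2 and Acox3 were not called either. Acox2, the oxidase for bile acid precursors, had 184 ± 32.3 CPM in the controls, against 216 ± 22.7 CPM with sorbate (mean ± SD over 4 libraries each; log2 fold change 0.23, SE 0.14, adjusted p = 0.316). Acox3, an oxidase for branched chains, stood at 33.1, 54.2, 32.3 and 32.7 CPM in the controls, against 51.1, 47.5, 42.7 and 50.1 CPM with sorbate (log2 fold change 0.33, SE 0.17, adjusted p = 0.224). Control 2 lay above every sorbate library in this gene, while the other controls lay below all of them.

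The thiolase genes Acaa1a and Acaa1b, which encode the last enzyme of the spiral, were both called higher. They are close copies on mouse chromosome 9, so their separate values depend on how shared reads were counted, which is not given in the sources used here. Their coding sequences of 1272 bases each differ at 44 positions (96.5% identity). Of all windows of 50 bases, 37.9% are identical in both genes, and the longest identical run covers 327 bases, coding positions 748 to 1074. The stretch with the most differences, coding positions 460 to 549 of the GENCODE vM21 transcripts (GRCm38), is shown 5′ to 3′ with its 13 differing bases in capitals, because it shows where reads of the copies can be told apart.
Acaa1a: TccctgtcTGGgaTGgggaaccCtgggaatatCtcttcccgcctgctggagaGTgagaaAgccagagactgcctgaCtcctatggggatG
Acaa1b: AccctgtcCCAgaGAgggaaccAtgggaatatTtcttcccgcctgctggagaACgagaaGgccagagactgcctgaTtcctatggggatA

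Acaa1a (ENSMUSG00000036138, chr9:119339676-119350299, plus strand) stood at 128, 116, 99.8 and 117 CPM in the controls, against 183, 178, 173 and 167 CPM with sorbate. These groups were tight and did not overlap (log2 fold change 0.60, SE 0.11, adjusted p = 0.00658). Acaa1b (ENSMUSG00000010651, chr9:119148023-119157093, minus strand) stood at 372, 277, 191 and 93.0 CPM in the controls, against 537, 929, 541 and 592 CPM with sorbate (log2 fold change 1.48, SE 0.36, adjusted p = 0.0253). It was the most variable of the called genes in both groups: control 1 was the highest and control 4 the lowest control, and sorbate 2 lay far above the other sorbate libraries, but the groups did not overlap. The call of Acaa1b was lost in 4 of the 8 leave-outs (without control 3, sorbate 2, sorbate 3 or sorbate 4) and with 1 surrogate variable as a covariate (adjusted p = 0.0790). The sum of both genes, which does not depend on how their reads were split between them but could on reads left uncounted, was 348 ± 125.8 CPM in the controls, against 825 ± 189 CPM with sorbate (mean ± SD over 4 libraries each), with the highest control at 499.9 CPM and the lowest sorbate library at 714 CPM. An exon of Acaa1a shares 290 bases with Myd88 on the opposite strand (2090 counts in the controls, 1518 with sorbate), and an exon of Acaa1b shares 224 bases with Dlec1 (21 and 22 counts).

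Scp2, which encodes a thiolase for branched chains and a sterol carrier protein from 1 gene, was also the most abundant of the 35 per length. It stood at 3959, 4935, 4783 and 3946 CPM in the controls, against 4238, 5229, 3955 and 4134 CPM with sorbate. The groups overlapped throughout, and no difference was called (log2 fold change −0.0055, SE 0.16, adjusted p = 0.987; 95% interval −0.36 to 0.35; the sign turned to 0.12 with scaling by library size alone). Scp2 made up 34.3% ± 2.63 of the summed level of the 35 genes in the controls, against 26.8% ± 2.94 with sorbate (mean ± SD over 4 libraries each). The other 34 genes summed to 8484 ± 1217 CPM in the controls, against 11987 ± 395 CPM with sorbate, and all 4 sorbate libraries (11558 to 12387 CPM) lay above control 2 (10253 CPM), the highest control.

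**Figure D2:**
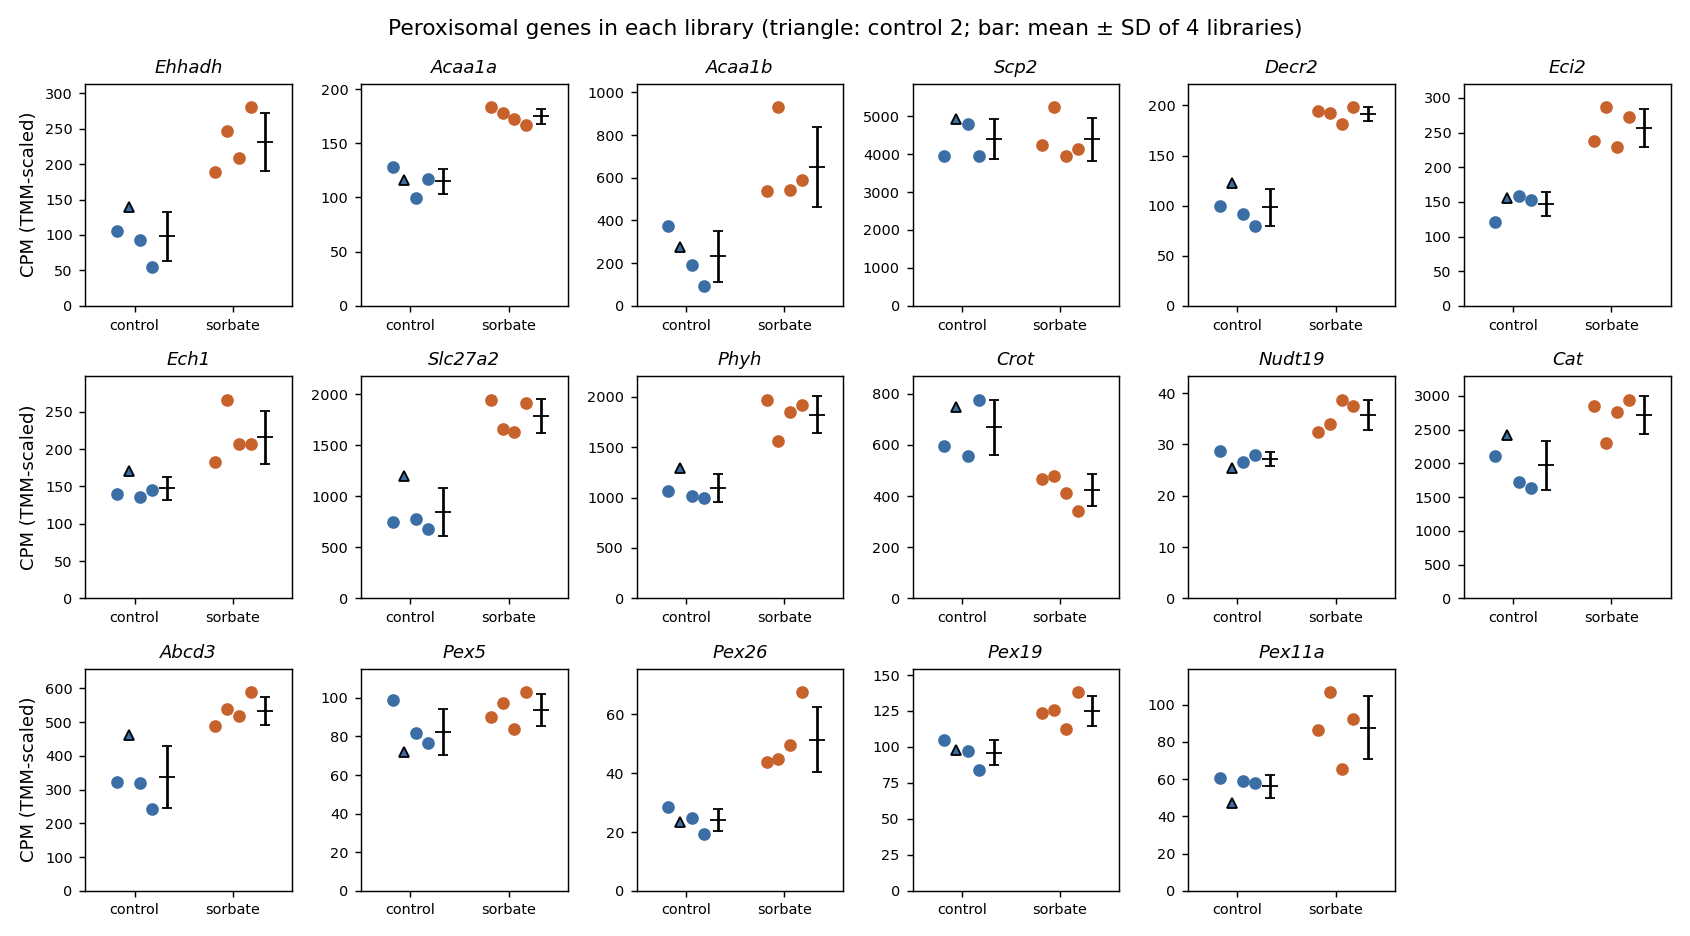
TMM-scaled CPM (y axis, from 0) in each of the 4 control (blue) and 4 sorbate (orange) libraries for 17 of the genes, with control 2 as a triangle and black bars for the mean ± SD of each group. The groups are apart in 14 of the panels and overlap in those of Scp2, Cat and Pex5.

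The auxiliary enzymes, which move or remove unsaturated bonds so that the spiral can go on, all had positive fold changes, and 3 of 4 were called. Decr2 (ENSMUSG00000036775, chr17:26081208-26090337, minus strand), the peroxisomal dienoyl-CoA reductase, had the lowest p of the 35 genes. Its level was 99.3, 123, 92.0 and 79.4 CPM in the controls, against 194, 193, 182 and 198 CPM with sorbate. The 4 sorbate libraries were close to each other and all above control 2, the highest control. Decr2 was thus 1.95-fold higher (log2 fold change 0.96, SE 0.13, adjusted p = 0.00262). Its promoter window is shown because it belongs to the gene with the lowest p; it is the RefSeq sequence on GRCm38.p6 from 250 bases before to 50 after the annotated start (chr17:26090115-26090414, minus strand), 5′ to 3′, with each GC box (GGGCGG on either strand) in capitals.
Decr2: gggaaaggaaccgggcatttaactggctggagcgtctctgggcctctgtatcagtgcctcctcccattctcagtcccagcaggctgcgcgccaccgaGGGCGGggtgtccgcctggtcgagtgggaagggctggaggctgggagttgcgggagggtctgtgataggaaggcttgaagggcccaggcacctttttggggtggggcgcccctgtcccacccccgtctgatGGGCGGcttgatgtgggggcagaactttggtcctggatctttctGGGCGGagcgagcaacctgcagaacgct

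Eci2, an enoyl-CoA isomerase that shifts a misplaced bond, stood at 121, 155, 158 and 153 CPM in the controls, against 238, 286, 229 and 272 CPM with sorbate (log2 fold change 0.80, SE 0.13, adjusted p = 0.00412). Its lowest library was control 1, and control 2 sat among the other controls. Ech1, a dienoyl-CoA isomerase, stood at 140.2, 170.3, 136 and 145 CPM in the controls, against 183, 266, 207 and 207 CPM with sorbate (log2 fold change 0.54, SE 0.14, adjusted p = 0.0277). Here the gap between the groups was narrow, from 170.3 CPM in control 2 to 183.3 CPM in sorbate 1, and the call of Ech1 was lost in 6 of the 8 leave-outs and with the surrogate variable (adjusted p = 0.114). Pecr, an enoyl-CoA reductase that works in chain elongation and phytol breakdown, was not called (log2 fold change 0.35, SE 0.15, adjusted p = 0.145), and control 2 lay within the sorbate range in it. The mitochondrial counterparts of the first pair were also called higher: Decr1 by 0.73 (SE 0.15) and Eci1 by 0.52 (SE 0.09) on the log2 scale.

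Branched-chain fatty acids are first activated and, if they carry a methyl group at the wrong place, shortened by 1 carbon in alpha-oxidation. Slc27a2 (ENSMUSG00000027359, chr2:126552407-126588243, plus strand), the very long chain acyl-CoA synthetase and fatty acid transport protein, stood at 744, 1196, 778 and 676 CPM in the controls, against 1946, 1661, 1627 and 1915 CPM with sorbate. Control 2 was the highest control and still below every sorbate library, and the fitted rise was 2.11-fold (log2 fold change 1.07, SE 0.19, adjusted p = 0.00695). Phyh (ENSMUSG00000026664, chr2:4919019-4938730, plus strand), the phytanoyl-CoA hydroxylase that begins alpha-oxidation, stood at 1068, 1296, 1016 and 998 CPM in the controls, against 1969, 1560.5, 1845 and 1923 CPM with sorbate (log2 fold change 0.74, SE 0.14, adjusted p = 0.0107). Again control 2 was the highest control and no library overlapped.

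Hacl1, the lyase that cleaves the hydroxylated acyl-CoA, stood at 17.0, 18.4, 15.6 and 14.3 CPM in the controls, against 10.6, 11.02, 11.3 and 16.0 CPM with sorbate. Its fold change was negative and not called (log2 fold change −0.42, SE 0.15, adjusted p = 0.0945), and sorbate 4 was the library that overlapped the controls. In the annotation 31.1% of the exon bases of Hacl1 also belong to Gm49387 on the same strand, which had 0 counts, and how reads on these bases were assigned is not given. Amacr, the racemase that readies branched acyl-CoAs for oxidation, was not called (log2 fold change 0.42, SE 0.17, adjusted p = 0.124), with control 2 at 180.1 CPM and the other controls at 103.8 to 112 CPM.

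Slc27a2 and Phyh were the called enzymes whose promoter windows hold AGGTCA, the half-site bound by many nuclear receptors. Both windows are shown for that reason, 5′ to 3′ from RefSeq on GRCm38.p6 (chr2:126552774-126553073, plus strand, and chr2:4918746-4919045, plus strand), with the half-site, which lies on the reverse strand as TGACCT, and GC boxes (GGGCGG, or CCGCCC on the reverse strand) in capitals.
Slc27a2: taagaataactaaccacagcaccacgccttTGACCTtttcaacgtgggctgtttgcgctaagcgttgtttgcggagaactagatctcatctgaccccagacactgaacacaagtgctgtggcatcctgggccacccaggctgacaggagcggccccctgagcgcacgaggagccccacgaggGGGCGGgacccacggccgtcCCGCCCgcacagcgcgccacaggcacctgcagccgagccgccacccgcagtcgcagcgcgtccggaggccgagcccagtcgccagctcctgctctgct
Phyh: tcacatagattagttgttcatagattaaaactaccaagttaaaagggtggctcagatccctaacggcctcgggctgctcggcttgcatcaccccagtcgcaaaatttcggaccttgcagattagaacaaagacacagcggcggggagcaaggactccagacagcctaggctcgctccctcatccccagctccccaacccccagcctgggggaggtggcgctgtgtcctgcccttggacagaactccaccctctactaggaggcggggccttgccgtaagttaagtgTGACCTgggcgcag

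The next block holds enzymes that end or protect the process. Crot (ENSMUSG00000003623, chr5:8966033-8997324, minus strand), the carnitine octanoyltransferase that prepares shortened chains for export, was the single gene of the 35 that fell. It stood at 594, 746, 557 and 775 CPM in the controls, against 466, 478, 411 and 343 CPM with sorbate. All controls lay above all sorbate libraries, and control 2 did not stand apart (log2 fold change −0.65, SE 0.16, adjusted p = 0.0247). With scaling by library size alone the log2 fold change of Crot was −0.53 and its call was lost (adjusted p = 0.0557). Its promoter window is shown as that of the gene that fell (chr5:8997097-8997396, minus strand, 5′ to 3′), with GC boxes and the CCAAT box in capitals.
Crot: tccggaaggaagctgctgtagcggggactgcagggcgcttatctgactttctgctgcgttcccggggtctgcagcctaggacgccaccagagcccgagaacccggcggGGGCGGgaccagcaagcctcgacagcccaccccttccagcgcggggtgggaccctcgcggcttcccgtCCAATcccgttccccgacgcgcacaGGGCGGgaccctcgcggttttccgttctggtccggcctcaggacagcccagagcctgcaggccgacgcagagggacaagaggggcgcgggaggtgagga

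Nudt7 and Nudt19 encode hydrolases that degrade CoA and its esters inside the organelle. Nudt19 rose: it stood at 28.7, 25.5, 26.6 and 27.9 CPM in the controls, against 32.4, 34.0, 38.7 and 37.5 CPM with sorbate (log2 fold change 0.39, SE 0.10, adjusted p = 0.0285). Control 2 was the lowest control, so in this gene it lay away from the sorbate libraries. The call of Nudt19 was lost without control 3, control 4, sorbate 3 or sorbate 4, and with the surrogate variable (adjusted p = 0.0668). Nudt7 was not called, with 947 to 1481 CPM in the controls, against 1032 to 1319 CPM with sorbate (log2 fold change −0.11, SE 0.16, adjusted p = 0.692; 0.0093 with scaling by library size alone, which turns the sign). Exons of Nudt19 share 35% of their bases with the antisense gene B230322F03Rik (23 counts in the controls and 30 with sorbate).

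Cat encodes catalase, which removes the hydrogen peroxide that the oxidases make. It stood at 2109, 2423, 1717 and 1632 CPM in the controls, against 2849.8, 2308, 2757 and 2939.5 CPM with sorbate. Control 2 lay above sorbate 2, and the difference was not called (log2 fold change 0.46, SE 0.17, adjusted p = 0.0955). Without control 2 the adjusted p of Cat was 0.0114.

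The ABC transporters of subfamily D bring acyl-CoAs into the peroxisome, except for Abcd4, which is known as a lysosomal protein of vitamin B12 transport. Abcd3, the most abundant of them per length, stood at 322, 462, 321 and 241 CPM in the controls, against 488, 538, 517 and 588 CPM with sorbate (log2 fold change 0.66, SE 0.18, adjusted p = 0.0388). The gap between control 2 and the lowest sorbate library was small, and the call of Abcd3 was kept in 1 of the 8 leave-outs, the one without control 2. Abcd2, for very long and polyunsaturated chains, was the least abundant of the 35 per length and varied widely, at 2.26 to 7.77 CPM in the controls, against 4.08 to 9.25 CPM with sorbate (log2 fold change 0.36, SE 0.35, adjusted p = 0.523; 95% interval −0.41 to 1.14). Abcd4 was not called (log2 fold change −0.24, SE 0.13, adjusted p = 0.254).

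Among the peroxins of matrix protein import, 1 of 8 was called. Pex26 (ENSMUSG00000067825, chr6:121183667-121198837, plus strand) encodes the membrane anchor of the ATPase complex that holds Pex6 and pulls the import receptor back out of the membrane. It stood at 28.3, 23.5, 24.9 and 19.2 CPM in the controls, against 43.8, 44.9, 49.6 and 67.4 CPM with sorbate. Every sorbate library lay above every control, sorbate 4 was the highest, and control 2 sat among the other controls. The fitted level was 2.14-fold higher (log2 fold change 1.10, SE 0.16, adjusted p = 0.00328). The promoter window of Pex26 is shown because it is the peroxin with the lowest p (chr6:121183417-121183716, plus strand, 5′ to 3′). It holds no GC box, CCAAT box or AGGTCA half-site, and the capitals mark a TATAAA match on the reverse strand.
Pex26: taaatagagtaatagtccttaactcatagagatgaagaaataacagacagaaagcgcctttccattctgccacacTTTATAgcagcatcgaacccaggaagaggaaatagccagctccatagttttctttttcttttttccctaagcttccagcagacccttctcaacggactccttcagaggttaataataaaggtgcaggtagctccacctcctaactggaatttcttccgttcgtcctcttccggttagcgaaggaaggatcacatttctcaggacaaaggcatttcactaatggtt

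Pex6, the ATPase, was not called (log2 fold change 0.066, SE 0.10, adjusted p = 0.695), with a 95% interval of −0.15 to 0.29 that stays below a 1.5-fold change. Pex5, the receptor for the C-terminal targeting signal, stood at 99.0, 72.1, 81.5 and 76.8 CPM in the controls, against 90.2, 97.2, 83.8 and 103 CPM with sorbate. These ranges overlapped, and control 2 was the lowest library of all 8 (log2 fold change 0.18, SE 0.12, adjusted p = 0.351). Pex7, the receptor for the N-terminal signal, covered 39.7 to 57.3 CPM in the controls, against 53.7 to 55.8 CPM with sorbate, and control 2 lay above all sorbate libraries (log2 fold change 0.22, SE 0.12, adjusted p = 0.239). The docking factors Pex13 (log2 fold change 0.11, adjusted p = 0.492) and Pex14 (0.18, adjusted p = 0.367) were not called. The ubiquitin ligase subunits Pex2 and Pex10 had negative fold changes, −0.25 for Pex2 (adjusted p = 0.151) and −0.087 for Pex10 (adjusted p = 0.769), and that of Pex10 turned to 0.036 with scaling by library size alone.

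Pex3, Pex16 and Pex19 place proteins in the peroxisomal membrane. Pex19, the soluble chaperone and receptor for membrane proteins, stood at 105, 97.9, 97.2 and 84.2 CPM in the controls, against 124, 126, 112 and 138 CPM with sorbate (log2 fold change 0.38, SE 0.11, adjusted p = 0.0462). Its groups did not overlap, but its adjusted p was the closest to the threshold among the called genes, and the call was kept in 1 of the 8 leave-outs, again the one without control 2. The membrane anchors Pex3 (0.23, SE 0.11, adjusted p = 0.198) and Pex16 (0.23, SE 0.11, adjusted p = 0.187) had log2 fold changes of similar size and were not called.

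Pex11a and Pex11g encode factors that elongate the membrane before the organelle divides. Pex11a (ENSMUSG00000030545, chr7:79735957-79743131, minus strand), the inducible form, stood at 60.4, 47.0, 59.0 and 58.1 CPM in the controls, against 86.4, 107, 65.7 and 92.3 CPM with sorbate. Control 2 was the lowest of all libraries, and sorbate 3 was the closest to the controls (log2 fold change 0.64, SE 0.15, adjusted p = 0.0220). The call held in 3 of the 8 leave-outs and was lost in the other 5, with an adjusted p of up to 0.0638. Pex11g was at 40.5 to 51.6 CPM in the controls, against 47.9 to 61.6 CPM with sorbate, and was not called (log2 fold change 0.26, SE 0.11, adjusted p = 0.162). Its exons share 41.1% of their bases with Gm44775 on the opposite strand, which had 2 counts in each group. The coding sequences of Pex11a and Pex11g share no window of 50 bases.

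Of the 21 genes that were not called, 15 had a positive and 6 a negative fold change, from −0.42 for Hacl1 to 0.46 for Cat on the log2 scale. In 15 of the 21 the 95% interval lay below a 1.5-fold rise, and in 20 of 21, all but Abcd2, it lay within a 2-fold change in either direction. The call of 8 of these genes was made when control 2 was left out. They were Acox3, Hsd17b4, Pecr, Amacr, Cat, Pex7, Pex3 and Pex11g. That fit called 15.1% of all tested genes higher and 14.1% lower, against 6.14% and 6.3% with all 8 libraries.

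On the first principal component of the 35 genes (77.9% of the variance) control 2 did not stand apart as it did on that of all genes. It scored −0.718, beside control 1 (−1.06) and below every sorbate library (1.38 to 2.18), and control 4 lay farthest out (−3.42). In the summed level of the 35 genes control 2 did stand apart, at 15188 CPM against 11515 to 12598 CPM in the other controls. The sorbate libraries had sums of 15707 to 16787.5 CPM. By single genes control 2 was the highest of the 4 controls in 20 of the 35 genes and the lowest in 5. In 16 of those 20 the fitted change was positive, so control 2 lay on the side of the sorbate libraries. In 10 genes, none of them called, control 2 lay within the range of the sorbate libraries. For the 14 called genes its median position was 0.231 of the log2 distance from the mean of the other controls (0) to the sorbate mean (1), from −0.607 for Pex11a to 0.767 for Abcd3. Control 4 was the lowest control in 19 genes, among them Ehhadh, Acaa1b and Abcd3. The cause of these positions was not tested.

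**Figure D3:**
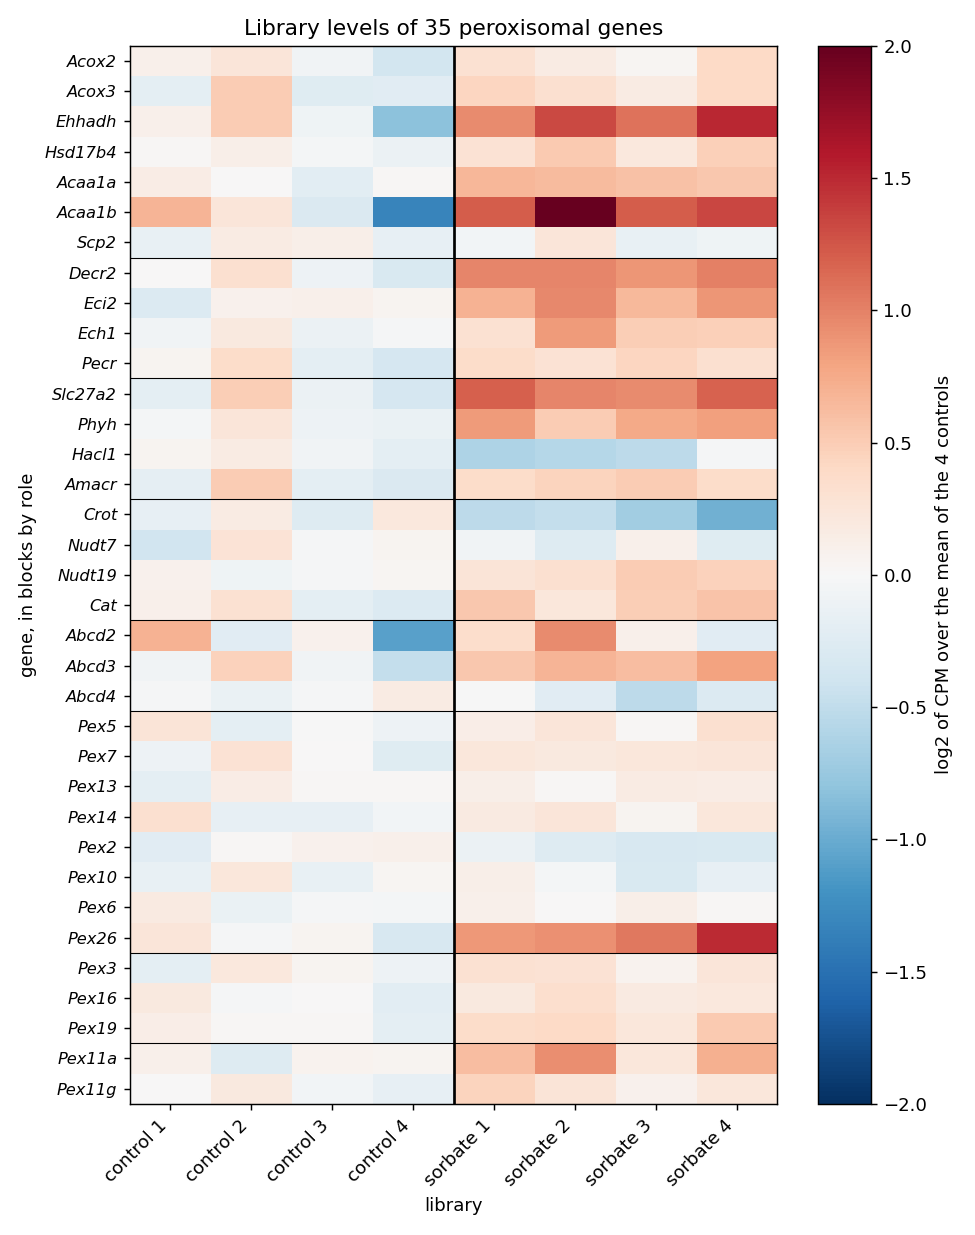
Heat map of the log2 ratio of each library's CPM to the mean of the 4 controls (colour) for the 35 genes (rows, in blocks by role) in the 8 libraries (columns). The column of control 2 is red in genes such as Slc27a2, Amacr, Acox3 and Abcd3 and blue or pale in Pex11a, Pex26 and Acaa1a, while the sorbate columns are red in most rows and blue in Crot.

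The libraries of a group differed more among the controls than among the sorbate libraries. The coefficient of variation over the 4 controls was larger than that over the 4 sorbate libraries in 26 of the 35 genes, with medians of 12.7% and 10%. Without control 2 it was larger in 21 of 35, with a median of 11.1%. In the controls it ran from 5.25% for Nudt19 to 51.1% for Acaa1b, and with sorbate from 1.58% for Pex7 to 36.2% for Abcd2. This spread was described, not tested.

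Compared per length, as CPM per kilobase of annotated exon, the levels covered a wide range. Scp2 was the most abundant in both groups (1267 ± 152 in the controls, against 1262 ± 165 with sorbate; ± is the SD over 4 libraries), followed by Cat (754 ± 140.3 and 1038 ± 107), Phyh (578 ± 72.5 and 964 ± 96.8) and Slc27a2 (226 ± 62.7 and 476 ± 44.3). Slc27a2 and Nudt7, at 219 ± 39.2 in the controls, did not differ beyond their spread there, and with sorbate they were far apart, with Nudt7 at 203 ± 24.3. Acaa1b passed Nudt7 and Crot in this order, from the seventh to the fifth place, and Crot moved from the sixth to the eleventh. Pex16 (37.5 ± 4.42 and 44.1 ± 2.13) was the most abundant peroxin, above Pex19 and Pex2, which did not differ beyond their spread in the controls (25.2 ± 2.25 and 25.0 ± 2.55). Abcd2, Pex10 and Abcd4 were at the bottom, at 0.807 ± 0.386, 1.51 ± 0.191 and 1.56 ± 0.137 in the controls. Exon lengths were merged over all annotated transcripts, so genes with long exons that are rarely used, such as Pex7 and Acox3, may read low.

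**Figure D4:**
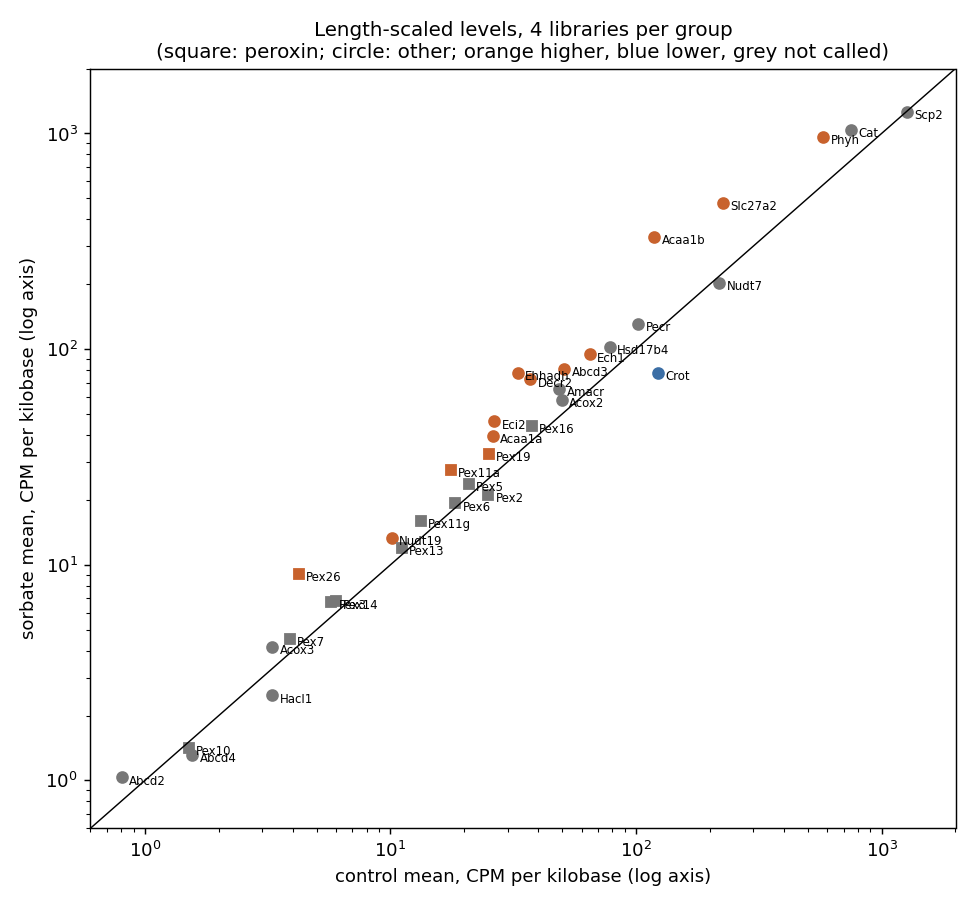
Mean CPM per kilobase in the sorbate group (y axis, log scale) against that in the control group (x axis, log scale) for the 35 genes, with the line of equal levels; squares are peroxins, orange genes were called higher, blue lower and grey ones were not called. Most orange points lie above the line in the middle of the range, Scp2 lies on it at the top right, and Crot lies below it.

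The promoter windows in the RefSeq table were searched for 7 motifs on both strands. Of the 35 genes 29 had an entry, with 35 windows in all. None of these windows held the direct repeat of AGGNCA with 1 spacer base that PPAR-alpha and its partner bind, and 0.381% of all 32851 windows in the table do. None held the E-box CACGTG (7.15% of all windows) or the D-box TTATGTAA (0.938%). No match says only that these letters are not in these windows. The half-site AGGTCA, which is also part of some direct repeats, was in 5 windows (14.3%, against 16.3% of all windows), those of Phyh, Slc27a2, Cat, Scp2 and Pex11g. GC boxes were in 24 windows (68.6%, against 35.7%), CCAAT boxes in 13 (37.1%, against 37.4%) and TATAAA in 3 (8.57%, against 13.6%). Some genes have more than 1 window, and by gene GC boxes were in 22 of the 29, against 38.2% of all genes with windows. These backgrounds also cover genes too low in these livers to be tested, and no difference in motifs was tested. The last 4 motifs were chosen after the first 3 had given no match.

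A wider list of 45 other peroxisomal genes, of which 40 were tested, had 8 higher and 2 lower, with a median log2 fold change of 0.17. Acot4, an acyl-CoA thioesterase of the peroxisome, rose from 12.8 ± 2.09 to 49.0 ± 9.83 CPM (mean ± SD over 4 libraries each; log2 fold change 1.94, SE 0.17, adjusted p = 3.12e-04). Ephx2, the soluble epoxide hydrolase, rose by 0.82 (SE 0.16) and Ddo, the D-aspartate oxidase, by 0.97 (SE 0.22) on the log2 scale. Paox, a polyamine oxidase, and Pxmp4, a membrane protein, were called lower, Paox with −0.73 (SE 0.14) and Pxmp4 with −0.76 (SE 0.17) on that scale.

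Of 12 receptors and coactivators of the PPAR-alpha group 2 rose and 0 fell. Ppara itself stood at 73.7, 84.4, 78.4 and 64.6 CPM in the controls, against 128, 162, 112 and 181 CPM with sorbate without overlap (log2 fold change 0.95, SE 0.16, adjusted p = 0.00569). Ppargc1b, a coactivator, rose by 1.72 (SE 0.35). Of 36 PPAR-alpha targets outside the peroxisome 22 rose and 0 fell (at an unadjusted p under 0.05, 25 were higher and 2 lower), with a median log2 fold change of 0.66. Those with the lowest p were the cytosolic thioesterase gene Acot1 (3.54, SE 0.29), the omega-hydroxylase gene Cyp4a10 (4.03, SE 0.40), the carnitine transporter gene Slc22a5 (1.19, SE 0.14), the lipid droplet factor gene Fitm2 (1.07, SE 0.13) and the mitochondrial genes Acadl (0.72, SE 0.10) and Cpt2 (0.77, SE 0.11). Control 2 had 5.59 CPM of Cyp4a10, within the range of the controls (3.89 to 8.26 CPM).

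Clock genes moved in these libraries as well. Of 16 clock and clock-output genes 9 rose and 4 fell, among them Arntl (13.5 ± 3.07 CPM in the controls, 1.03 ± 0.187 CPM with sorbate; log2 fold change −3.72, SE 0.22, adjusted p = 3.60e-05). Dbp, a clock-output factor, stood at 4.53, 33.3, 7.16 and 8.76 CPM in the controls, against 134, 119, 124 and 99.1 CPM with sorbate. Control 2 was the highest control in Dbp, and also in Tef (85.0 CPM) and Per2 (12.8 CPM). It lay within the range of the other controls in Arntl (12.6 CPM), Usp2 (2.90 CPM), Ciart (1.90 CPM) and Hlf (29.9 CPM). The hour of collection is not named in the labels, and the part of the clock in the peroxisomal results was not tested.

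The count of called genes depended on the libraries. Without control 2 it was 21 higher and 1 lower, when 15.1% and 14.1% of all tested genes were called. Without control 3 or sorbate 4 it was 7 higher, when 2.46% and 2.70% of all tested genes were called higher. Without control 4, sorbate 2 or sorbate 3 it was 8, when 2.89%, 4.10% and 3.02% of all genes were. The fall of Crot was not called without control 4, sorbate 1, sorbate 3 or sorbate 4. The calls of Ehhadh, Acaa1a, Decr2, Eci2, Slc27a2, Phyh and Pex26 were made in all 8 leave-outs and with 1 surrogate variable as a covariate. The other 7 calls were lost in at least 4 of the leave-outs, with every sign kept: Acaa1b, Crot and Nudt19 were called in 4 of the 8, Pex11a in 3, Ech1 in 2, and Abcd3 and Pex19 in 1. That variable took a value of 0.478 for control 2, whereas controls 1, 3 and 4 had −0.513 to −0.360 and the sorbate group had 0.0604 to 0.289. With it 8 genes were higher and 1 lower, when 2.42% of all tested genes were called higher and 2.26% lower. The calls of Acaa1b, Ech1, Nudt19, Abcd3 and Pex19 were lost with it (adjusted p of 0.0668 to 0.163).

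**Figure D5:**
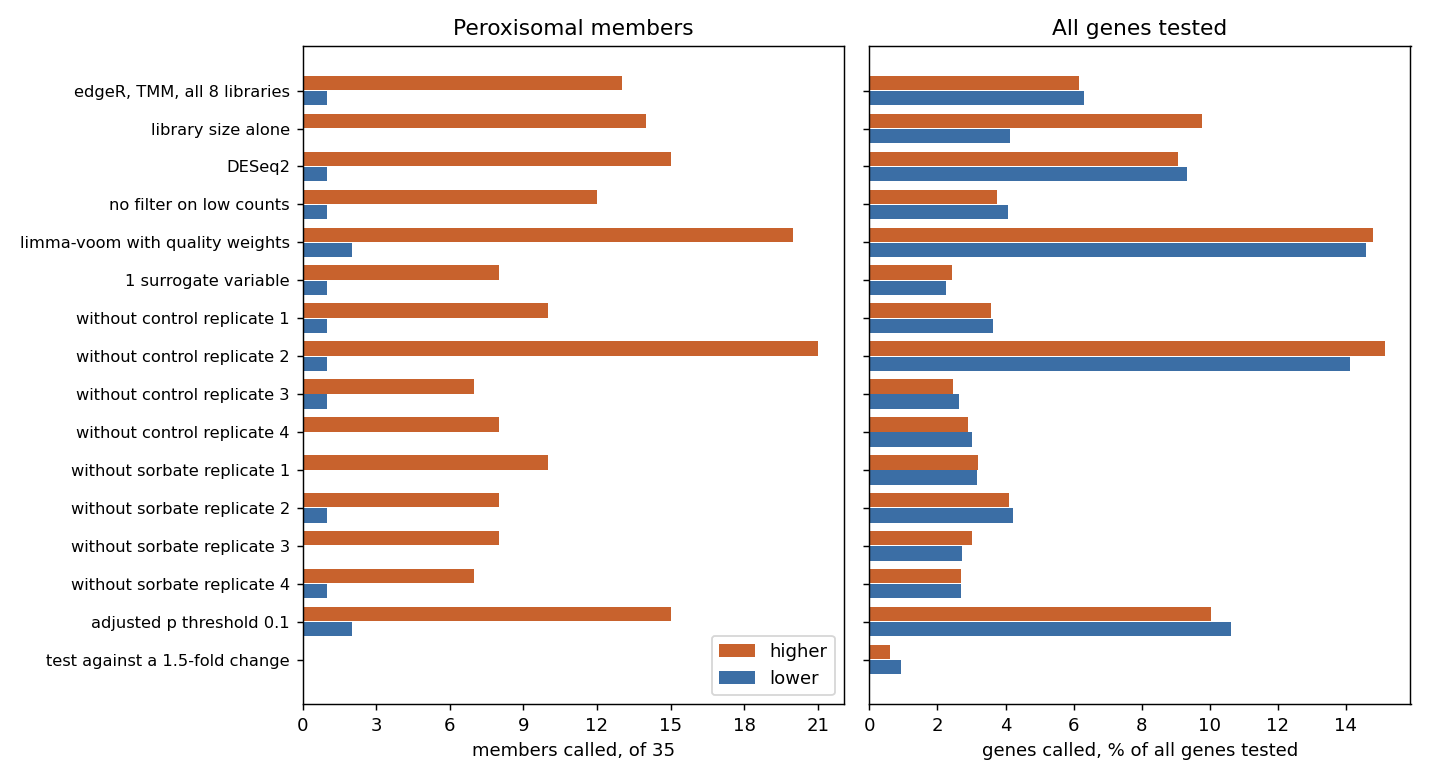
Number of the 35 genes called higher (orange) and lower (blue) under each setting (left, x axis in genes) beside the percentage of all tested genes called (right, x axis in percent). The number called higher is largest without control 2 (21) and 0 in the test against a 1.5-fold change, and the percentage of all genes called moves with them.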

How the data were processed

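Poly(A) RNA of snap-frozen liver was read as single reads in 8 libraries, per the labels' protocols. The submitters' processing notes name FastQC, HISAT2 2.1.0, Subread, edgeR and the build GRCm38. How reads were assigned to genes, with which annotation and strand setting, is not given in the sources used here. The values deposited by the authors are raw counts per gene, without normalization, in 1 table of 55487 genes. 4 further columns of per-sample values matched no sample described here and were not used.

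The counts were tested with edgeR 4.0.16 (R 4.3.3; TMM scaling, filterByExpr with a minimum count of 10, quasi-likelihood F-test, sorbate against control, Benjamini-Hochberg adjustment over the 13312 genes tested). Levels are TMM-scaled CPM. Total counts and the mitochondrial share did not separate the groups (exact permutation test over 70 arrangements, two-sided, p = 0.971 and p = 0.686, both adjusted p = 0.971; smallest possible p = 0.0286). Libraries of a group differed by more than sampling noise in every pair, so none was merged. Samples were grouped by the treatment in their labels, and replicate numbers follow accession order. Alternatives were scaling by library size alone, DESeq2 1.42.0, no filter, limma-voom with quality weights (limma 3.58.1), 1 surrogate variable (sva 3.50.0), each library left out, an adjusted p threshold of 0.1 and a test against 1.5-fold. On simulated counts of this comparison (13142 genes tested, 200 changed) the test called 19.7% of genes changed by 1.5-fold, 56.7% by 2-fold and 98.4% by 4-fold, and 11 of its 124 calls were false. Exon lengths, overlaps and coding sequences came from GENCODE vM21, and promoters from a RefSeq table on GRCm38.p6.

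The members, lists and motifs were chosen with earlier results of these data known. Values in every library are given for the gene with the lowest p and the gene with the highest mean CPM in each role, for the 12 genes with the lowest p, and for Decr2, Acaa1a and Acaa1b; those of Acox3 and Hacl1 were added after their values were seen. From each other list up to 6 called genes with the lowest p are named, and Arntl, Dbp, Cyp4a10 and Ppara beside the library that stands apart. Decr1, Eci1, Hadha, Acaa2 and Crat were added with their values known. Protein sequences were not analysed here.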

Additional observations from a re-analysis of the deposited data

Results flagged for a closer look

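In each of the 70 groups of 4 libraries, 1 for every gene and treatment, the highest or lowest value was compared with the others by Dixon's criterion. Chance marks about 1 in 20 groups, and 5 of 70 (7.14%) were marked. Acox3, a branched-chain acyl-CoA oxidase, had 54.2 CPM in control 2 where the other controls had 32.3 to 33.1 CPM. Amacr, the racemase, had 180.1 CPM in control 2 against 103.8 to 112 CPM, so 2 of the 5 marks fell on that library, and neither gene was called. Eci2, the enoyl-CoA isomerase, had 121 CPM in control 1 against 153 to 158 CPM, and its call held without that library. The thiolase gene Acaa1b had 929 CPM in sorbate 2 against 537 to 592 CPM. The lyase gene Hacl1 had 16.0 CPM in sorbate 4 against 10.6 to 11.3 CPM.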

How the results depend on the processing

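Of the 35 genes, 13 were called higher and 1 lower. Limma-voom with quality weights called 20 higher and 2 lower, when it called 14.8% and 14.6% of all genes, and it gave control 2 a weight of 0.309. With 1 surrogate variable 8 were higher, when 2.42% of all genes were called higher, and the test against 1.5-fold called 0 in each direction. Leaving out 1 library gave 7 to 21 higher and 0 to 1 lower. Scaling by library size alone called 14 higher and 0 lower (at an unadjusted p under 0.05, 24 and 1), moved the median of all genes from −0.02 to 0.11 and the split of all calls to 1300 higher and 550 lower, from 818 and 838. A threshold of 0.1 called 15 higher and 2 lower, the latter Crot and Hacl1, when 10.0% of all tested genes were called higher and 10.6% lower.

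All 14 called genes kept their sign in every alternative run. Among the genes not called, the sign turned for Scp2 (0.12 with library size alone, 0.0023 without the filter, −0.098 to 0.064 over the leave-outs), Nudt7 (0.0093 with library size alone, −0.22 to 0.0043 over the leave-outs) and Pex10 (0.036 with library size alone, −0.16 to 0.0068 over the leave-outs). The cause was not tested. A leave-out holds 7 libraries, so its test has fewer degrees of freedom. No paired analysis was possible because the replicate numbers follow accession order and the labels name no shared animal, cage or day.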

Other observations

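Peroxisomes are also removed, by a selective form of autophagy. Of 11 genes of pexophagy and peroxisome turnover 2 rose and 0 fell, with a median log2 fold change of 0.25 (at an unadjusted p under 0.05, 5 were higher and 1 lower). Tfeb, a transcription factor of lysosome and autophagy genes, rose from 4.72 ± 0.546 to 7.68 ± 1.31 CPM (mean ± SD over 4 libraries each; log2 fold change 0.70, SE 0.17, adjusted p = 0.0243, edgeR's quasi-likelihood test). Tex264, a receptor for autophagy of the endoplasmic reticulum, rose by 0.35 (SE 0.10) on the log2 scale.

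Steps that peroxisomes share with mitochondria could be set side by side. Mitochondrial Hadha, the alpha subunit of the trifunctional protein, rose by 0.50 (SE 0.13) on the log2 scale, against 1.23 (SE 0.24) for peroxisomal Ehhadh. The mitochondrial thiolase gene Acaa2 had a log2 fold change of 0.41 (SE 0.13) and was not called (adjusted p = 0.0579, edgeR's quasi-likelihood test), against 0.60 (SE 0.11) for Acaa1a and 1.48 (SE 0.36) for Acaa1b. Among carnitine acyltransferases the peroxisomal Crot fell by 0.65, while Crat, the acetyltransferase found in both organelles, rose by 0.70 (SE 0.20) and the mitochondrial Cpt2 rose by 0.77 (SE 0.11). The differences between the organelles were not tested.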
